A study of Mus musculus with 38 samples.

Results

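Distal enhancers that carried an H3K27ac peak in silenced cortical neurons and no longer carried one after depolarisation are described here. They were chosen by the authors' class of decreasing H3K27ac together with the merged KCl peak list of the whole genome. A decreasing site belongs to the set when it lies in no KCl peak. This gave 490 of the 738 decreasing sites (66.4%), or 4.14% of all 11830 distal sites marked by CBP and H3K4me1. They are called peak-losing enhancers below.

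Peak lists came from chromatin immunoprecipitation followed by sequencing in cortical neurons of C57BL/6 mouse embryos of day 16.5, used at day 7 in vitro. All cultures had been silenced overnight with 1 µM TTX, which blocks sodium channels, and 100 µM DL-AP5, which blocks NMDA receptors. KCl cultures were then depolarised for 2 h, and unstimulated cultures stayed silenced. The H3K27ac lists pool biological samples 1 and 2. c-Fos (antibodies sc52 and sc7202) and FosB (sc48) were mapped after KCl and in silenced neurons of biological samples 3 and 4, and JunB (sc46) in biological sample 4. Biological samples 5 and 6 received KCl and an shRNA against c-Fos, an shRNA against FosB or a control shRNA, and c-Fos (sc52) or FosB was mapped in them. The labels do not say how many cultures or embryos a biological sample holds, nor the KCl concentration, and peak lists hold no expression with which to check the cell type.

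Acetylation of lysine 27 on histone H3 marks enhancers in use, and it is written by CBP and its relative p300 and removed by histone deacetylases. H3K4me1 marks enhancers whether or not they are in use. Depolarisation lets calcium into neurons and switches on the genes of c-Fos, FosB and JunB. These belong to the AP-1 family and bind DNA as Fos-Jun pairs at many activity-regulated enhancers. Binding of these proteins was mapped in other biological samples than H3K27ac. The rule used no AP-1 list, though how the authors made the decreasing class is not given.

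The peak-losing enhancers lay mostly in H3K27ac peaks that disappeared as a whole and were weaker than those at other decreasing sites or constant sites. The authors gave each peak a score that grows as its p-value gets smaller, and it ranks peaks within a list. It had a median of 144.53 for the unstimulated peaks at these enhancers (quartiles 87.62 and 257.47, lowest 51.02, highest 3100). At the 248 decreasing sites that kept a KCl peak, the median unstimulated score was 721.96, and at the 800 sites of constant H3K27ac it was 392.48. Over all 19628 distal unstimulated peaks it was 165.76 (quartiles 89.47 and 385.97), not far above that of the peak-losing enhancers. A score under 100 was found at 153 peak-losing enhancers (31.2%), against 1 decreasing site that kept its peak (0.403%) and 85 constant sites (10.6%). The list starts at a score of 50.01, so these 153 peaks lay not far above its lower limit. These scores belong to the contrast that chose the sites and are given as description, without a test.

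Lost peaks were also narrower. Their median width was 2202 bp (quartiles 1738 and 2663 bp), against 3264 bp where a KCl peak was kept and 2928 bp at constant sites. The median over the 19628 distal unstimulated peaks was 2197 bp, so the lost peaks were of ordinary width for this list. The CBP site lay a median of 199 bp from the centre of the lost peak. Of the 490 enhancers, 483 lay in a distal unstimulated peak and 7 in a peak outside the authors' distal list.

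**Figure D1:**
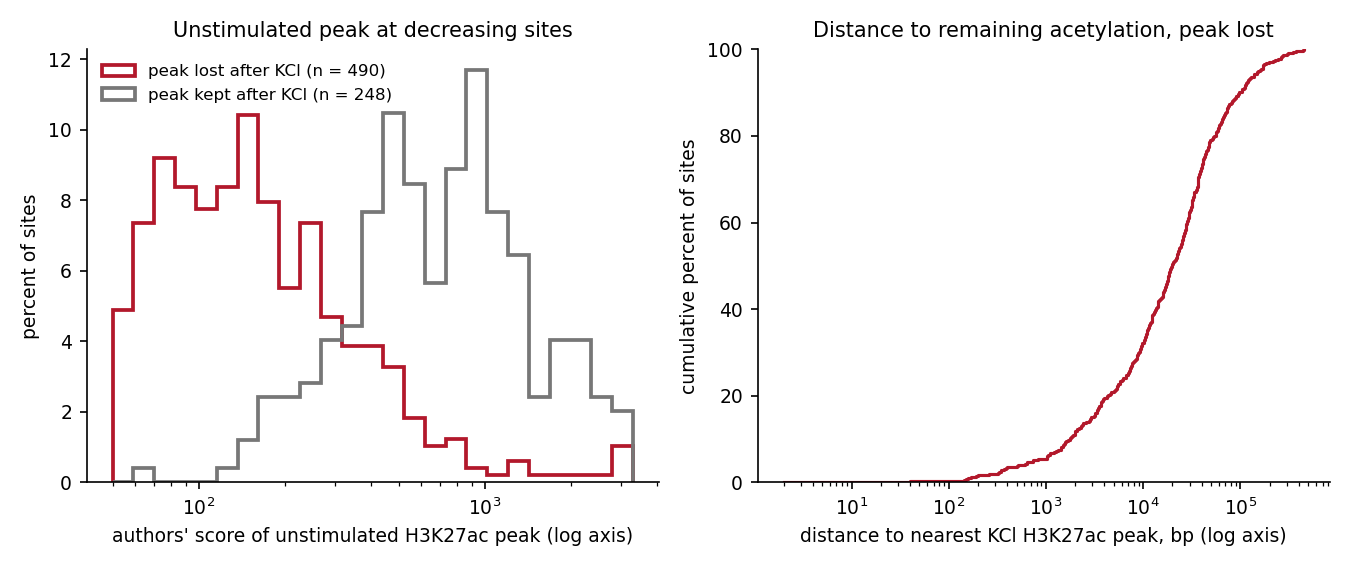
The left panel shows the authors' score of the unstimulated H3K27ac peak (log axis) as percent of sites, for decreasing sites whose peak was lost after KCl (n = 490) and for those that kept one (n = 248). The right panel gives the cumulative percent of peak-losing enhancers by distance in bp to the nearest KCl H3K27ac peak (log axis). Lost peaks centre on lower scores (median 144.53 against 721.96), and the median distance to the nearest KCl H3K27ac peak, new or kept, is 19806 bp.

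The 490 enhancers lay in 476 unstimulated peaks, of which 462 held 1 of them and 14 held 2. No KCl peak overlapped 440 of these 476 peaks (92.4%). The other 36 peaks, with 39 enhancers, overlapped a KCl peak that stopped short of the CBP site. These partly kept peaks tended to be stronger and wider, although their lowest score was 70.2. The rule itself favours wide peaks here, because such a peak must hold the CBP site and also overlap a KCl peak that misses it. The values are therefore description. The 39 enhancers had a median unstimulated score of 620.06 and a median peak width of 4525 bp, against 137.07 and 2130 bp for the 451 enhancers in wholly lost peaks. Of the 40 enhancers with a score of at least 500, 23 were in partly kept peaks, as were 13 of the 14 in peaks wider than 5 kb.

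After KCl, the nearest H3K27ac peak lay a median of 19806 bp from a peak-losing enhancer (quartiles 6943 and 42514 bp). A KCl peak lay within 500 bp of 18 of them (3.67%), within 1 kb of 26 (5.31%) and within 10 kb of 158 (32.2%). At the 1886 sites with no H3K27ac in either condition the median distance to a KCl peak was 27218 bp. These KCl peaks include ones with no unstimulated counterpart, and H3K27ac below the peak threshold was not seen. The 3 enhancers farthest from a KCl peak lay at position 114813485 of chromosome 14 (448498 bp away), position 7605670 of chromosome 11 (441163 bp) and position 86793910 of chromosome 15 (371327 bp).

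The limit of the rule is the edge of a KCl peak. Just outside it, the site at position 75419155 of chromosome 15 lay 2 bp from a KCl peak with a score of 112.35 (unstimulated score 620.06). The site at position 103935425 of chromosome 7 lay 40 bp from a KCl peak with a score of 65.33 (unstimulated score 389.28). The next, at position 108037960 of chromosome 10, lay 142 bp from a KCl peak with a score of 83.86 (unstimulated score 213.21). Just inside a KCl peak, and so not in the set, were the decreasing sites at position 93128860 of chromosome 2 (25 bp from the edge, KCl score 278.68, unstimulated score 956.33), 55348120 of chromosome 6 (26 bp, 222.33 and 1046.75) and 29975490 of chromosome 18 (28 bp, 92.24 and 69.25). Decreasing sites that kept a peak had a median KCl score of 137.88, and 85 of the 248 had one under 100. Positions are those of genome build mm9, as the authors' files give them.

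Of all 11830 sites, 853 (7.21%) lay in an unstimulated peak and in no KCl peak, the pattern that the rule itself uses. The authors' decreasing class held 490 of these 853 (57.4%), and 363 were in no class. Those 363 had weaker unstimulated peaks, with a median score of 89.71 and a median width of 1849 bp.

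The 5 peak-losing enhancers with the highest unstimulated scores all sat in wide acetylated domains that were kept in part. On chromosome 2, the site at position 44948410 lay in an unstimulated peak from 44947441 to 44973829, with a score of 3100, and 1624 bp from the nearest KCl peak. The site at 58054090 of chromosome 9 lay in a peak from 58042293 to 58055195 (score 3100), 744 bp from a KCl peak. On chromosome 13, the site at 54861995 lay in a peak from 54852984 to 54863111 (score 3100), 202 bp from a KCl peak. Each of these CBP sites was near one end of its domain, and a KCl peak overlapped that domain elsewhere. The next were at 77703100 of chromosome 11 (peak from 77699375 to 77712587, score 3075.18, 259 bp from a KCl peak) and 65040545 of chromosome 14 (peak from 65031871 to 65041748, score 2868.21, 1780 bp). The site on chromosome 13 lay in 2 of the 6 KCl c-Fos lists, and the other 4 in none. None of the 5 was in a KCl FosB or JunB list without shRNA or with control shRNA, though the site on chromosome 14 lay in both FosB shRNA lists.

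After depolarisation, c-Fos peaks lay at a minority of the enhancers that lost their H3K27ac peak. The share inside a c-Fos peak after KCl was 20% (98 of 490) with sc52 and 32% (157) with sc7202 in biological sample 3. In biological sample 4 it was 7.55% (37) with sc52 and 17.8% (87) with sc7202. In silenced neurons the same antibodies covered 2.86% (14) and 0 in biological sample 3, and 1.02% (5) and 0 in biological sample 4. A count of 0 of 490 allows a share of up to 0.612%. All 4 KCl libraries lay above all 4 unstimulated ones.

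The mean was 19.3% ± 10.1 after KCl and 0.969% ± 1.35 in silenced neurons (SD, n = 4 libraries each). The difference of 18.4 percentage points gave p = 0.0286 in an exact two-sided permutation test over 70 arrangements, the smallest p of this design. Paired within biological sample and antibody, the same difference gave an exact sign-flip p = 0.13, the smallest that 4 pairs allow, so the call was lost with this replicate block. The 4 libraries of a condition come from 2 biological samples, and without either one the exact p was 0.333 (differences of 12.1 and 24.6 points).

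The same libraries covered a larger share of all CBP and H3K4me1 sites after KCl. Over all 11830 sites, the share inside a c-Fos peak after KCl was 35.7% and 47.9% in biological sample 3 (sc52 and sc7202) and 14.4% and 33% in biological sample 4. In silenced neurons it was 2.09% and 0.380% in biological sample 3, and 0.930% and 0.0254% in biological sample 4. The length of the lists bears on these shares: the 4 KCl lists held 6808 to 28885 peaks and the 4 unstimulated ones 557 to 3669, and the depth behind them is unknown. With each of these 8 lists cut to its 557 best-scoring peaks, 1 to 3 of the 490 enhancers were covered after KCl and 0 in silenced neurons, a difference of 0.459 points.

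**Figure D2:**
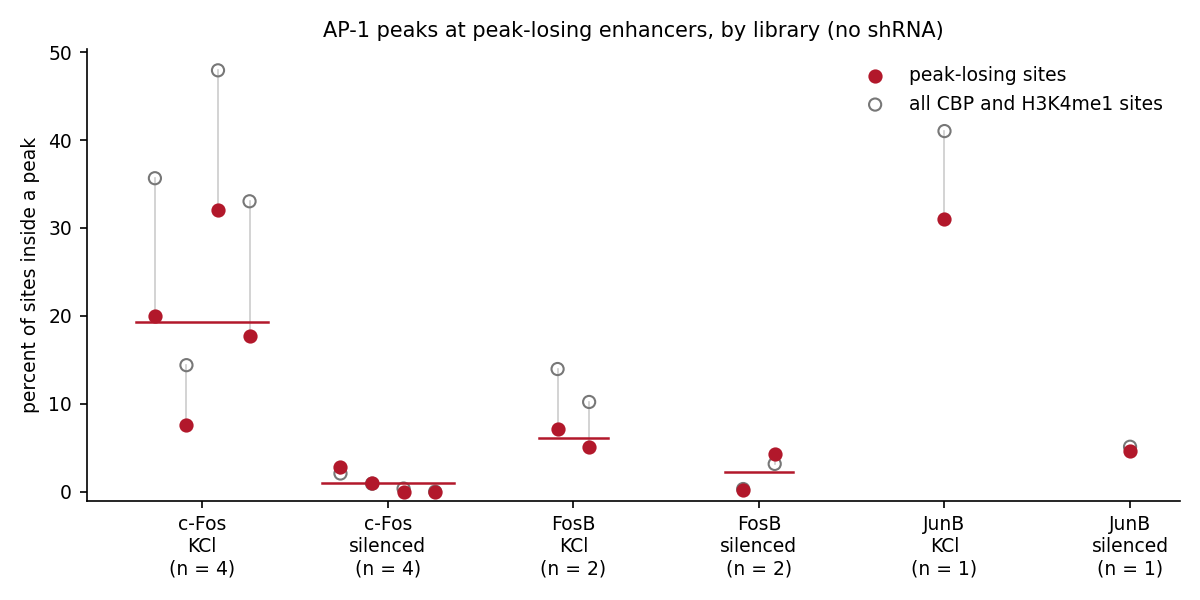
Percent of sites inside a peak in each library without shRNA (1 point per library) for the 490 peak-losing enhancers (filled) and all 11830 CBP and H3K4me1 sites (open), with KCl left of silenced for c-Fos, FosB and JunB. Horizontal lines are means over libraries for the peak-losing enhancers. In the KCl libraries every filled point lies below its open partner, and the 4 KCl c-Fos points (7.55% to 32%) lie above the 4 silenced ones (0 to 2.86%).

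JunB, a Jun partner of Fos proteins, covered the largest share of peak-losing enhancers in biological sample 4. It was found at 152 of 490 (31.0%, Wilson 95% interval 27.1 to 35.3%) after KCl and at 23 (4.69%, 3.15 to 6.94%) in silenced neurons, against 41.0% and 5.13% of all sites. The difference was 26.3 points, without a replicate. Of the 23 enhancers with JunB in silenced neurons, 20 also had it after KCl, and 132 had it after KCl alone. These overlaps were not counted over all sites. The KCl list held 19346 peaks and the unstimulated list 3126. Cut to the same 3126 best-scoring peaks, the KCl list covered 28 enhancers (5.71%) and the unstimulated list 23 (4.69%), a difference of 1.02 points.

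FosB, a Fos protein related to c-Fos, was found at few of them in the libraries without shRNA. With control shRNA libraries included, 155 (31.6%) lay in at least 1 of 4 KCl FosB lists, against 46.1% of all sites. After KCl the FosB lists without shRNA covered 35 enhancers (7.14%) in biological sample 3 and 25 (5.10%) in biological sample 4. Unstimulated lists covered 1 (0.204%) and 21 (4.29%). Over all sites the shares were 14.0% and 10.2% after KCl, and 0.321% and 3.18% in silenced neurons. The groups did not overlap, but the unstimulated value of biological sample 4 came close to its KCl partner. The means of 6.12% ± 1.44 after KCl and 2.24% ± 2.89 in silenced neurons (SD, n = 2 each) differed by 3.88 points (exact two-sided permutation p = 0.333, the smallest possible). Without biological sample 3 the difference was 0.816 points, and without biological sample 4 it was 6.94 points. With lists of the same length it was 0.204 points. In biological sample 4, 6 of the 21 enhancers with FosB in silenced neurons had it after KCl, and 9 of the 21 also had JunB in silenced neurons. Neither count was made over all sites.

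Control shRNA cultures, also given KCl, gave c-Fos shares in the same range and higher FosB shares. In biological sample 5, c-Fos covered 93 peak-losing enhancers (19.0%), against 35.6% of all sites. In biological sample 6 it covered 76 (15.5%), against 33.3% of all sites. FosB covered 137 (28%) of the enhancers in biological sample 5 and 74 (15.1%) in biological sample 6, where 41.5% and 25% of all sites were covered. Peak width differed between the FosB libraries, with a median of 767 bp in biological sample 5 and 187 to 254 bp in the other 3 KCl libraries, and its part in the higher share was not tested.

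Under shRNA against c-Fos, c-Fos peaks lay at fewer of the peak-losing enhancers than under control shRNA in both biological samples. In biological sample 5 they covered 20 (4.08%) under c-Fos shRNA and 93 (19.0%) under control shRNA. In biological sample 6 they covered 0 of 490 under c-Fos shRNA and 76 (15.5%) under control shRNA. All sites showed 6.56% and 0.414% under c-Fos shRNA. The means at peak-losing enhancers were 2.04% ± 2.89 with c-Fos shRNA and 17.2% ± 2.45 with control shRNA (SD, n = 2 each), a difference of -15.2 points (exact two-sided permutation p = 0.333, the smallest possible). Of the 93 enhancers covered with control shRNA in biological sample 5, 14 (15.1%) had a peak under c-Fos shRNA, and of the 76 in biological sample 6 none had. The share that had one was 15.5% and 1.07% over all sites in biological samples 5 and 6. In biological sample 5 it was 23.1% at decreasing sites that kept a peak, 19.5% at constant sites and 9.60% at sites with no H3K27ac. The c-Fos shRNA lists were shorter, at 7808 and 1793 peaks against 23578 and 19131 with control shRNA. With the 4 lists cut to 1793 peaks, c-Fos shRNA covered 0 enhancers in both samples and control shRNA 6 and 7, a difference of -1.33 points.

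FosB shRNA gave a smaller difference that depended on list length. In biological sample 5, FosB peaks covered 85 enhancers (17.3%) under FosB shRNA and 137 (28%) under control shRNA. In biological sample 6 they covered 43 (8.78%) under FosB shRNA and 74 (15.1%) under control shRNA. All sites showed 20.5% and 13.8% under FosB shRNA. The groups overlapped, since 17.3% under FosB shRNA in biological sample 5 exceeded 15.1% with control shRNA in biological sample 6. The difference was -8.47 points (means 13.1% ± 6.06 with FosB shRNA and 21.5% ± 9.09 with control shRNA, SD, n = 2 each, exact two-sided permutation p = 0.667). With each list cut to its 7180 best-scoring peaks it turned to 2.65 points, with 66 and 43 enhancers covered under FosB shRNA and 44 and 39 under control shRNA. Of the enhancers with FosB under control shRNA, 55 of 137 (40.1%) and 27 of 74 (36.5%) had it under FosB shRNA in biological samples 5 and 6. Over all sites the shares were 41.6% and 39.7%. They were 44% and 56.4% at decreasing sites that kept a peak, 46.8% and 41.98% at constant sites, and 36.8% and 43.2% at sites with no H3K27ac.

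**Figure D3:**
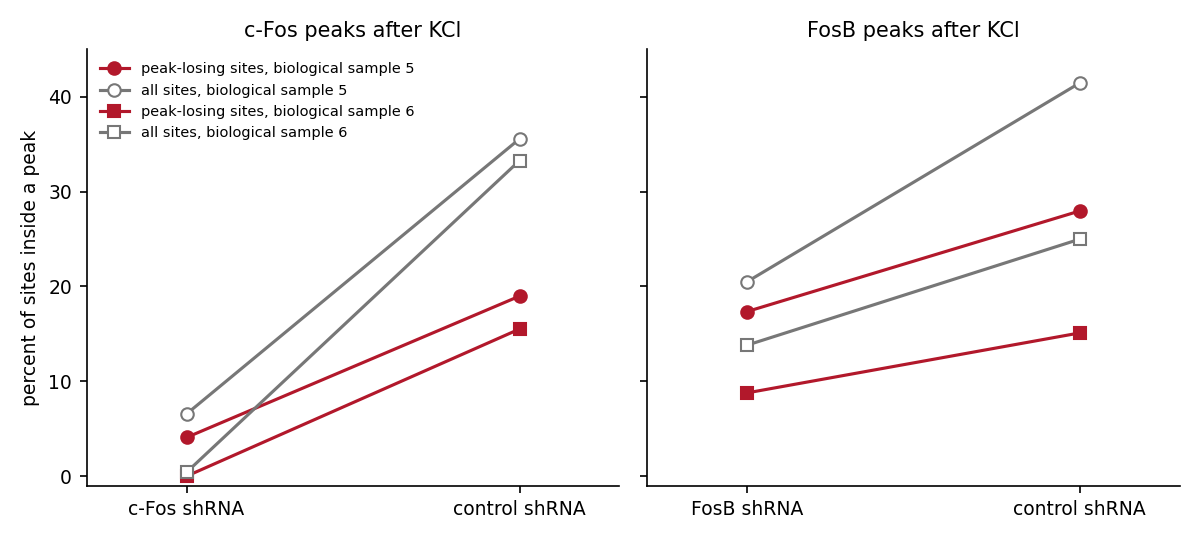
Percent of sites inside a c-Fos peak (left) or FosB peak (right) after KCl under shRNA against the mapped protein and under control shRNA, for peak-losing enhancers (filled) and all 11830 sites (open), in biological samples 5 (circles) and 6 (squares). Lines join the libraries of a biological sample. c-Fos shRNA left 4.08% and 0 of peak-losing enhancers covered, against 19.0% and 15.5% with control shRNA, and FosB shRNA 17.3% and 8.78%, against 28% and 15.1%.

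Whether AP-1 binding set the peak-losing enhancers apart from like sites was asked within each KCl library, where all classes share a list and its depth. c-Fos covered fewer peak-losing enhancers than decreasing sites that kept a peak in 6 of 6 libraries, although by little. The mean over libraries was 18.6% ± 7.94 for peak-losing enhancers and 20.5% ± 8.71 for sites that kept a peak (SD, n = 6). Averaged per biological sample, the difference was -1.72 points ± 0.832 (SD, n = 4 biological samples). The distance was wider from constant sites, where c-Fos covered 24.5% ± 9.03 (difference -6.05 points ± 1.06). It was widest from sites with no H3K27ac in either condition, where c-Fos covered 34% ± 11.4 (difference -16.5 points ± 4.77). Peak-losing enhancers were lower in 6 of 6 libraries against constant sites and against sites without H3K27ac too.

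FosB gave the same direction in 4 of 4 KCl libraries against each class. It covered 13.8% ± 10.4 of peak-losing enhancers, 15.6% ± 10.4 of decreasing sites that kept a peak, 17.3% ± 12.3 of constant sites and 23.3% ± 14.5 of sites with no H3K27ac (SD, n = 4). The differences were -1.80 ± 1.27, -3.49 ± 2.53 and -9.45 ± 4.36 points (SD, n = 4 biological samples). Each of the 6 comparisons gave an exact two-sided sign-flip p = 0.13, which is also the value after Benjamini-Hochberg adjustment over the 6 and the smallest that 4 biological samples allow. None passed 0.05. The differences from decreasing sites that kept a peak were under 4 points in every library. JunB, in its single KCl library, covered 31.0% of peak-losing enhancers, 32.7% of decreasing sites that kept a peak, 30.5% of constant sites and 43.8% of sites with no H3K27ac, so constant sites were not above the peak-losing ones for this protein.

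**Figure D4:**
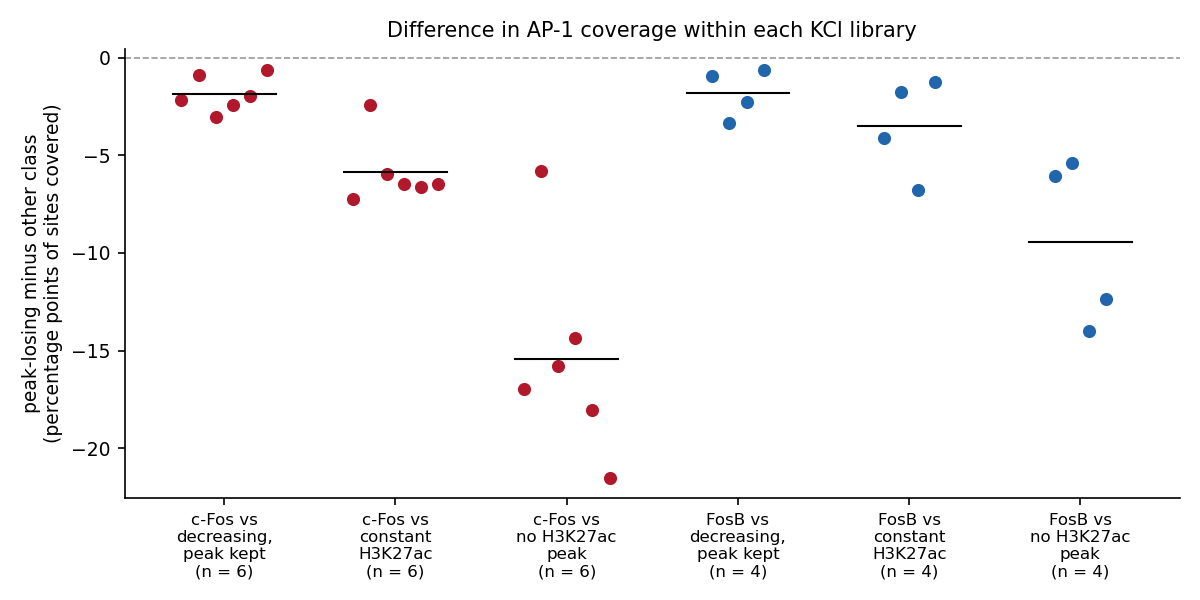
Difference in the percent of sites inside a peak, peak-losing enhancers minus another class, in each KCl library (1 point per library, control shRNA included), for c-Fos (red, n = 6) and FosB (blue, n = 4). Black lines are means over libraries and the dashed line marks 0. All 30 points lie below 0, nearest to it against decreasing sites that kept a peak and farthest against sites with no H3K27ac.

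The c-Fos peaks at peak-losing enhancers ranked lower in their lists than those over all sites, as did those of the other decreasing sites. With 100 for the best-scoring peak of a list, the median rank percentile of the peaks covering them was 39.6 to 53.95 over the 6 KCl c-Fos lists. For the peaks that covered any of the 11830 sites it was 52.4 to 70.4, and it was higher than for peak-losing enhancers in 6 of 6 lists. Decreasing sites that kept a peak (32.1 to 62.1) and sites with no H3K27ac (51.7 to 64.6) were also below all sites in 6 of 6 lists, and constant sites (58.7 to 66.7) in 5. Peak-losing enhancers were below decreasing sites that kept a peak in 4 of 6 lists. Where a peak was present it was well placed, with its centre a median of 39 to 61 bp from the CBP site, against 51 to 61 bp over all sites.

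Most peak-losing enhancers had no c-Fos peak in any list. None of the 6 KCl c-Fos lists covered 295 of them (60.2%), and 195 (39.8%) lay in at least 1, against 56.6% of all sites. Just 18 (3.67%) lay in all 6, against 11% of all sites. In biological sample 4, 9 (1.84%) lay in every KCl list (both c-Fos antibodies, FosB and JunB), against 6.05% of all sites. Over the 11 KCl lists of c-Fos, FosB and JunB, 243 (49.6%) lay in at least 1, against 64.2% of all sites, and 247 in none. Without stimulation, 16 (3.27%) lay in a c-Fos peak of at least 1 of 4 libraries, against 2.67% of all sites. All 16 were in an sc52 list, 13 of them lay in at least 1 KCl c-Fos list, and 6 had a peak under c-Fos shRNA in biological sample 5. These overlaps, too, were not counted over all sites.

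**Figure D5:**
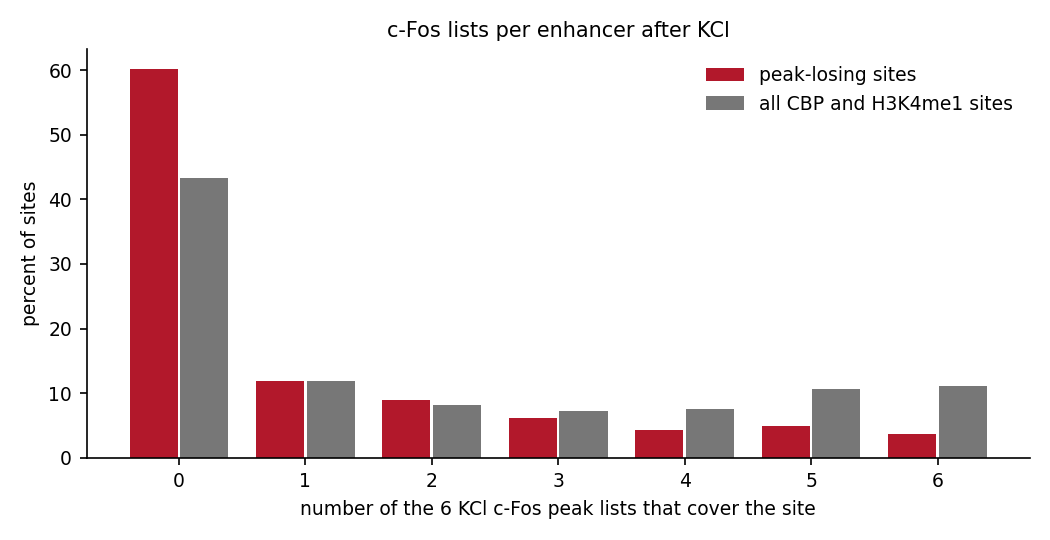
Percent of the 490 peak-losing enhancers (red) and of all 11830 CBP and H3K4me1 sites (grey) by the number of the 6 KCl c-Fos lists, control shRNA included, in which the site lies inside a peak. Peak-losing enhancers are the larger share at 0 lists (60.2%) and the smaller at 6 (3.67% against 11%).

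A combined c-Fos site from the deposited list lay within 500 bp of 55 peak-losing enhancers (11.2%, Wilson 95% interval 8.73 to 14.3%), against 26.3% of all sites. The share was 10.9% at decreasing sites that kept a peak (interval 7.59 to 15.4%), so the interval of each share holds the other. It was 17.1% at constant sites (14.7 to 19.9%) and 30.1% at sites with no H3K27ac (28.1 to 32.2%). Of the 55, 50 lay in at least 1 KCl FosB or JunB list, a count not made over all sites. These intervals describe counting error alone, and sites of 1 culture do not replicate it.

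Biological sample 4 had 3 AP-1 proteins mapped. JunB lay at most peak-losing enhancers with c-Fos there, as it did over all sites with c-Fos. Of the 87 with c-Fos (sc7202) after KCl, 72 (82.8%) also had JunB and 17 (19.5%) FosB, against 82.5% and 26% of all sites with c-Fos. Of the 152 with JunB, 80 (52.6%) also had c-Fos with either antibody, against 54.3% at decreasing sites that kept a peak, 63.9% at constant sites, 63.9% at sites with no H3K27ac and 68.6% of all sites with JunB. No test was made of these shares, which come from 1 biological sample.

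The 18 enhancers bound in all 6 KCl c-Fos lists lost their H3K27ac peak. After KCl they had several AP-1 proteins mapped to them, as had nearly all sites of any kind in all 6 lists. All 18 lay in the KCl JunB list and in at least 1 KCl FosB list, 6 of them in each of the 4 KCl FosB lists and 2 in a c-Fos list of silenced neurons. Under c-Fos shRNA 6 had a c-Fos peak in at least 1 library. Of the 1307 sites of any kind in all 6 lists, 98.0% lay in the KCl JunB list, 98.9% in at least 1 KCl FosB list, 38.6% in all 4, 5.59% in a c-Fos list of silenced neurons and 29.9% in a c-Fos shRNA list. The unstimulated H3K27ac scores of the 18 ran from 56.88 to 379.45 with a median of 170.88, and peak-losing enhancers in no KCl c-Fos list had a median of 152.28.

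The 5 of these 18 with the best-ranked c-Fos peaks are named by position. The site at 10379890 of chromosome 16 lay in an unstimulated H3K27ac peak from 10378788 to 10381270 (score 203.16), 8892 bp from the nearest KCl peak. Its c-Fos peak in the control shRNA library of biological sample 5 reached from 10379441 to 10380430 (score 325.23). Every KCl FosB list (4 of 4) covered it, and it kept c-Fos in 1 of the 2 c-Fos shRNA libraries and FosB in both FosB shRNA libraries. The same held for the site at 32816380 of chromosome 14, in an unstimulated H3K27ac peak from 32815316 to 32817389 (score 295.72) and 12269 bp from a KCl peak, with a c-Fos peak from 32815841 to 32816905 (score 467.63).

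The other 3 had no c-Fos peak under c-Fos shRNA. The site at 81674655 of chromosome 8 lay in an unstimulated H3K27ac peak from 81674104 to 81677172 (score 186.62) and 170 bp from a KCl peak. A KCl peak overlapped this unstimulated peak away from the site. The site at 20074465 of chromosome 5 (peak from 20073757 to 20075576, score 109.59) lay 72822 bp from a KCl peak. The last, at 12376820 of chromosome 15 (peak from 12376267 to 12377978, score 159.62), lay 42745 bp from one. None of the 5 was covered by an unstimulated c-Fos, FosB or JunB list, and all 5 lay in the KCl JunB list.

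Among the peak-losing enhancers, the c-Fos share was lowest where the lost peak had been strong. In the 163 with the weakest unstimulated peaks (scores 51.02 to 103.56), KCl c-Fos lists covered 21.9% ± 9.71 (SD, n = 6 libraries). In the middle 164 (103.63 to 206.67) they covered 19.6% ± 7.15, and in the 163 strongest (207.26 to 3100) 14.4% ± 7.38. The strongest part was not above the weakest in any of the 6 libraries. FosB means were 14.4%, 14.9% and 12.1% over 4 libraries, and JunB covered 31.9%, 31.7% and 29.4%. Enhancers in partly kept peaks had a c-Fos share of 18.8% ± 8.83 and those in wholly lost peaks 18.6% ± 7.90 (SD, n = 6 libraries). These are descriptions, because the score belongs to the contrast that chose the sites.

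Another peak-losing enhancer lay within 10 kb of 48 of the 490 (9.80%), and within 100 kb of 109 (22.2%). Over all sites the shares were 1.41% and 7.94%. Of these 48, 28 were the pairs in the 14 shared peaks, which share the H3K27ac peak that the rule used. Leaving out sites of the same unstimulated peak, a restriction chosen after the values were seen, another one lay within 10 kb of 22 (4.49%). By the same count a peak-losing enhancer lay within 10 kb of 2.82% of decreasing sites that kept a peak, 0.75% of constant sites, 0.636% of sites with no H3K27ac and 0.997% of all sites. The nearest other CBP site, shared peaks included, belonged to the same set in 67 cases (13.7%), and these enhancers make up 4.14% of all sites.

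Increasing sites were few near peak-losing enhancers and near the other decreasing sites. Within 10 kb they were found at 6 (1.22%), against 0.806% of decreasing sites that kept a peak, 3.75% of constant sites, 1.86% of sites with no H3K27ac and 6.38% of all sites. Within 100 kb they were found at 46 (9.39%), against 10.5% of decreasing sites that kept a peak, 21.4% of constant sites, 15.0% of sites with no H3K27ac and 23.3% of all sites. The nearest other CBP site was an increasing one in 27 cases (5.51%), a class that makes up 12.4% of all sites. Sites close to each other can share a stretch of chromatin, and no test was made of these shares.

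H3K27ac peaks of 1 condition alone were counted around the enhancers too. They come from the same pooled H3K27ac lists that chose the sites, so these shares are description, without a test. An unstimulated peak with no KCl counterpart, other than the site's own, lay within 100 kb of 335 peak-losing enhancers (68.4%), against 78.6% of decreasing sites that kept a peak, 59.8% of constant sites, 39.1% of sites with no H3K27ac and 51.3% of all sites. Counting such peaks with no CBP site in them, also chosen after the values were seen, the share was 59.8% of peak-losing enhancers, 77.0% of decreasing sites that kept a peak and 47.0% of all sites. A KCl peak with no unstimulated counterpart lay within 100 kb of 174 (35.5%), against 34.3% of decreasing sites that kept a peak, 50.3% of constant sites, 41.6% of sites with no H3K27ac and 53.6% of all sites. In 21 of the 476 unstimulated peaks there was also a CBP site of another class or of none (16 with an unclassified site, 5 with a decreasing site that kept a peak and 2 with a constant site), and 0 held an increasing site.

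The widest of the 14 unstimulated peaks with 2 peak-losing enhancers reached from 92639784 to 92646204 of chromosome 1 (6421 bp, score 677.08), with sites at 92643290 and 92645370. Members of the set were found on all 19 autosomes. They ran from 11 on chromosome 16 (2.24% of the set, against 3.42% of all sites) to 47 on chromosome 1 (9.59% against 7.95%). On the X chromosome 0 of 37 CBP sites belonged to the set. With 0.313% of all sites, that chromosome held too few to read this 0 as a trait of the set. Of those 37, 13 lay in an unstimulated peak.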

How the data were processed

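BWA and mm9 appear in the submitters' processing notes, and the peak names in the deposited files start with MACS. The sources used here do not give versions, the control library, or how the authors made the combined c-Fos sites and the H3K27ac classes. The deposited score of a peak is on the MACS scale, with a peak threshold of 1e-05 in the file names. For H3K27ac the authors merged biological samples 1 and 2 before calling, per the labels. The other deposited lists hold single positions. Each AP-1 list comes from 1 library of 557 to 28885 peaks. Read depth is unknown because the lists hold no counts, so it limits every share. Input DNA was not analysed here.

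A site was covered when it lay inside a peak. Libraries were compared with exact permutation tests, and classes with exact sign-flip tests over biological samples. Same-numbered libraries share a biological sample, per the labels: coverage of the peak-losing enhancers was higher in 3 than in 4 in 4 of 6 groups (equal in 1), and higher in 5 than in 6 in 4 of 4. Whether biological samples are separate cultures is not stated, so p-values may reflect technical spread. Sites named are the 5 most often bound by c-Fos, the 5 with the highest unstimulated score, the 3 on either side of the rule, the 3 farthest from a KCl peak and the peak with most members (14 tied, the widest given, chosen after values were seen). The sites and tests were chosen with earlier results of these data known. Alternatives were a score of at least 100, centres within 200 bp, peaks within 500 bp, 1 site per peak, sites 1 kb from KCl peaks, autosomes, lists of the same length, each biological sample left out, the replicate block, single antibodies and libraries as units. Gene names and DNA sequence were not used here, since no mm9 genome or annotation was at hand. The overlap and permutation code was tested on simulated data. Python 3.11.15, numpy 2.4.6 and matplotlib 3.10.9 were used.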

Additional observations from a re-analysis of the deposited data

Results flagged for a closer look

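The difference in c-Fos coverage between peak-losing enhancers and constant sites was taken in percentage points. On that scale the KCl sc52 library of biological sample 4 stood apart from the other 5 KCl c-Fos libraries. Its difference was -2.45 points (7.55% of peak-losing enhancers and 10% of constant sites), against -7.25 to -5.96 points in the others. Both of its shares were the lowest of the 6 libraries, and the difference was not scaled to them. This library had the shortest of the 6 KCl c-Fos lists, with 6808 peaks, and the part of list length in the difference was not tested. It was the single library found among 10 groups examined, and chance marks about 1 in 20 groups.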

How the results depend on the processing

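Of 130 alternatives over 13 results, 108 gave a p, and 99 of these kept the direction and the side of 0.05. Of the 22 without a p, 20 stayed close to the reported value or kept its direction. In 1 the direction turned: FosB coverage under FosB shRNA minus control shRNA was 2.65 points with lists of the same length, and the cause was not tested. The c-Fos difference between KCl and unstimulated libraries (18.4 points) lost its call with the replicate block (18.4 points, exact p = 0.13), with sc52 alone (11.8) and with sc7202 alone (24.9), where fewer samples limit p to 0.333. It ranged from 12.1 to 24.6 with a biological sample left out, and was 7.55 with scores of at least 100 and 0.459 with lists of the same length. The other 3 results compared with the block had no call to lose. With the library as the unit, the c-Fos differences of peak-losing enhancers from sites that kept a peak (-1.86), constant sites (-5.88) and sites with no H3K27ac (-15.4) passed at an exact p = 0.0313, but these 6 libraries share 4 biological samples. Without any 1 biological sample they ran from -2.09 to -1.42, -6.58 to -5.86 and -18.6 to -14.8. The JunB difference moved to 10.8 points with scores of at least 100 and 1.02 with lists of the same length. The number of peak-losing sites was 464 to 575. Read depth is unknown and limits every share.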
